A study of Mus musculus with 30 samples.

Results

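Clozapine and haloperidol were compared directly in mouse forebrain, 10 arrays against 10, over the 12944 of 22626 probe sets whose log2 value averaged at least 4 over all 30 arrays of the series. The 10 remaining arrays came from untreated mice and are described beside the drugs without entering the tests. All mice were male C57BL animals, a common inbred strain, housed singly. Each drug was taken in the drinking water for 12 weeks. The clozapine dose was 12 mg/kg/day and the haloperidol dose 1.6 mg/kg/day, each described in the design text as the highest used in patients. The protocol of the haloperidol samples names clozapine beside its dose, and the drug was taken from the sample titles. The doses differ in mass, so the comparison is of these regimens and not of matched amounts. The age is given as 4 weeks, which fits the start of the experiment and not the end of treatment. The brain was divided into hemispheres and cerebellum, and 1 hemisphere per mouse was used, right per most labels and left per the tissue field, with 1 Affymetrix MOE430A array per mouse and no pooling.

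Both drugs are antipsychotics. Haloperidol is a typical antipsychotic that blocks dopamine D2 receptors, which are concentrated on striatal neurons that make the opioid peptide enkephalin. Clozapine is an atypical antipsychotic that binds dopamine receptors less tightly and also binds serotonin, histamine, muscarinic and adrenergic receptors. Acute block of dopamine receptors is known to induce immediate early genes such as Fos in striatum, whereas these mice had been treated for weeks.

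The tissue was checked against markers of brain regions and cell types. Of 8 forebrain neuron markers 5 were measured, among them Neurod2, Tbr1 and Ppp1r1b, with mean log2 values of 7.72, 8.50 and 8.65 over all 30 arrays. Of 8 cerebellar markers 3 passed the filter. Their mean level had a median of 7.66 over clozapine, 7.43 over haloperidol and 7.55 over control arrays. For the 5 forebrain markers these medians were 8.25, 8.14 and 8.28. Whether cerebellar tissue was included was not tested. None of the blood or pituitary markers passed, but only 3 of 5 blood genes and 6 of 7 pituitary genes were on the array. In whole hemispheres, fewer cells of a type and less RNA per cell cannot be told apart.

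Average-linkage clustering of all 30 arrays gave 3 larger groups, called A, B and C here, and left 4 arrays single. In cluster A there were 11 arrays, of which 3 were clozapine, 5 haloperidol and 3 control. Cluster B held 1 clozapine, 3 haloperidol and 4 control arrays. Cluster C held 5 clozapine and 2 control arrays and no haloperidol array, and clozapine array 7, haloperidol arrays 2 and 7 and control array 1 stood alone. The clusters went partly with replicate number. Cluster A held only numbers 1 to 6, and cluster B only 7 to 10 apart from clozapine array 1. Haloperidol arrays 8 to 10 were all in cluster B and clozapine arrays 8 to 10 all in cluster C. Among these numbers drug and cluster cannot be told apart. The first principal component of the 20 drug arrays carried 38.0% of the variance, and the drug accounted for 5.80% of that component's variance (permutation p = 0.301). Without haloperidol arrays 2 and 7 it accounted for 17.3%. No test is given for this, because these arrays had the highest scores on that component among haloperidol arrays (43.0 and 48.2). A measure of RNA quality is the difference between probe sets at the 3' and the 5' end of the control transcripts Gapdh and Actb, which grows as RNA is shortened. Its median was 0.877 over clozapine arrays, with a range from 0.624 to 1.24, and 0.562 over haloperidol arrays, with a range from 0.470 to 2.45. All 20 arrays gave means of 0.936 and 0.808, and a permutation test of this difference gave p = 0.630 (adjusted p = 0.933 over 5 array measures, two-sided). Haloperidol arrays 2 and 7 held the highest values of this measure among haloperidol arrays, and without them the clozapine mean was higher by 0.37, a description with no test since they are extreme in the measure itself. Clozapine arrays 6, 7 and 8, at 1.24, 1.24 and 1.22, were kept, although each lay above haloperidol array 2 at 1.10. Arrays were thus left out of the haloperidol group only, and values without these 2 arrays depend on that choice. Control array 1, at 4.09 the highest of all 30 arrays, was kept in the control values. Values are for all 20 arrays unless stated otherwise. For many genes and lists they are also given without these 2 haloperidol arrays, or without them and with this measure as a covariate, called the covariate fit here. Without these 2 arrays the drug accounted for 52.2% of the variance of the measure. The covariate fit therefore cannot tell the drug and the measure apart. Its median SE was 0.23, against 0.17 without the covariate.

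**Figure D1:**
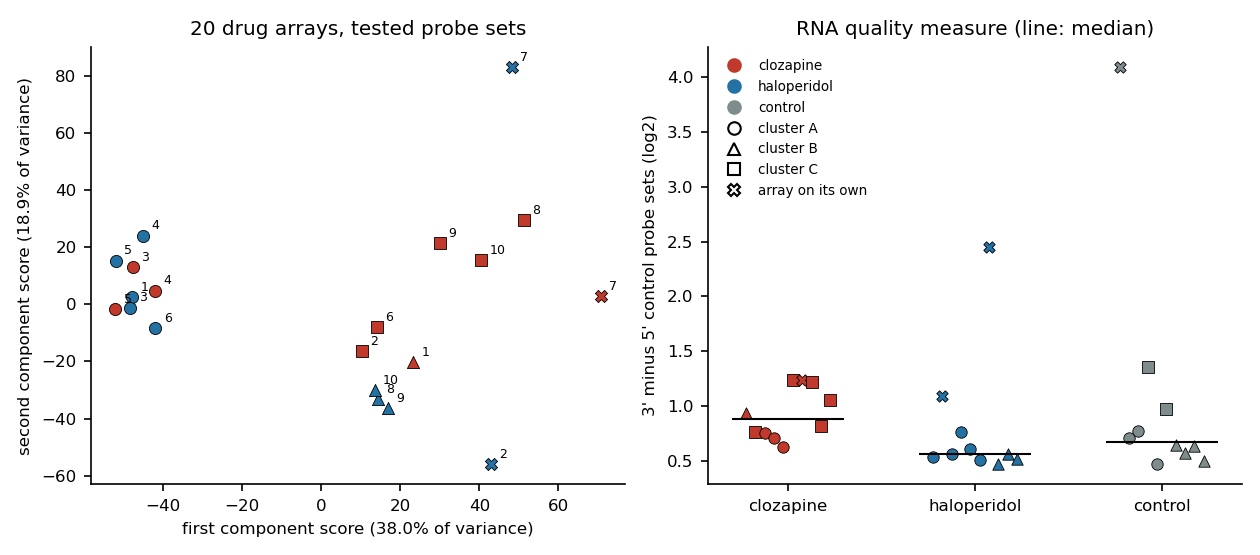
Left: scores of the 20 drug arrays on the first and second principal components of 12944 probe sets, coloured by drug, shaped by array cluster and numbered by replicate. Right: the difference between 3' and 5' control probe sets (log2) of every array by group, with lines at the medians. The arrays fall into clusters that hold both drugs, except cluster C, which holds no haloperidol array, and haloperidol array 7 lies at 2.45.

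No probe set differed between the drugs past an adjusted p of 0.05 in limma, in either direction (0 of 12944, 0%), and the smallest adjusted p was 0.977. At an unadjusted p under 0.05 there were 322 probe sets, 2.49% of those tested, against 647.2 that a rate of 5% gives. Of these, 204 (1.58% of all tested) had a higher mean after clozapine and 118 (0.912%) a lower one. No probe set had all clozapine arrays above or all below the haloperidol arrays (0%). Over the tested probe sets the SE of the log2 difference had a median of 0.20, and the 95% interval had a median half-width of 0.41, or 1.33-fold. For 11300 probe sets (87.3%) the interval lay within a 2-fold difference either way, and for 7028 (54.3%) within 1.5-fold. For the other 1644 it reached past 2-fold, so differences of that size were not excluded there. Means were higher after clozapine for 7858 probe sets (60.7%), with a median difference of 0.05.

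These counts rested on a few arrays. Without haloperidol array 7 the count at an unadjusted p under 0.05 was 1345, without haloperidol array 2 it was 772, and without both it was 1980 (15.3%), with a smallest adjusted p of 0.231 in limma. With both left out and the RNA quality measure as a covariate, there were 263 (2.03%), 105 higher and 158 lower. In none of the fits run was any probe set called. Leaving out clozapine array 8, 10 or 7 gave 170, 195 and 211 such probe sets, and leaving out clozapine array 3 or 5 gave 497 and 524.

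**Figure D2:**
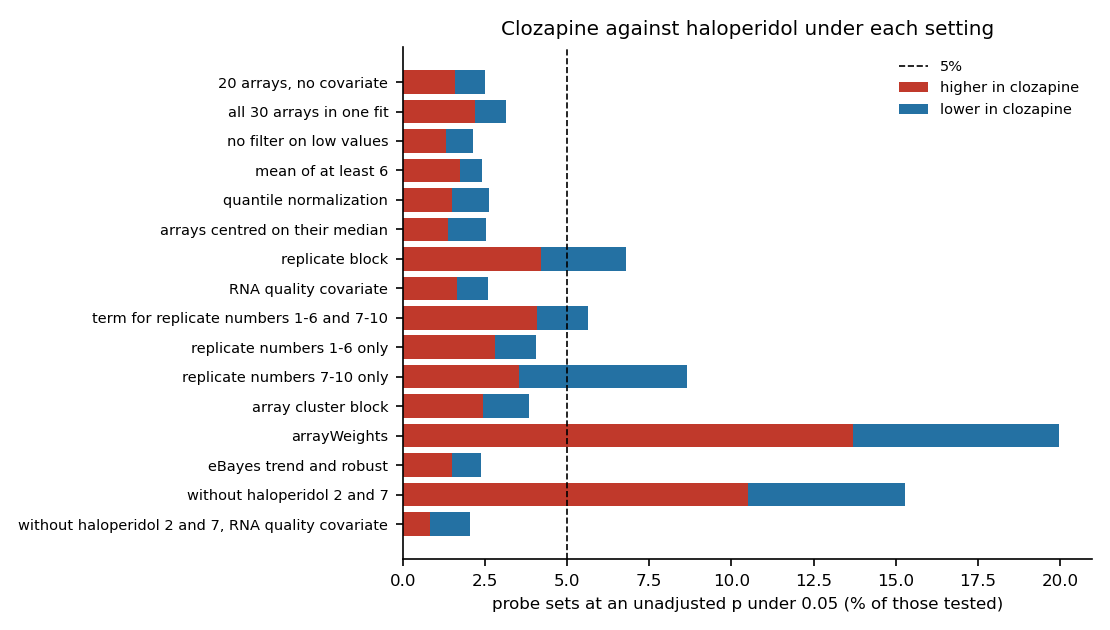
Share of the tested probe sets at an unadjusted p under 0.05 in each fit of clozapine against haloperidol (horizontal axis, %), split by direction, with a dashed line at 5%. The share is 2.49% with all 20 arrays, 15.3% without haloperidol arrays 2 and 7, and 2.03% when the RNA quality measure is added to that fit.

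Since none was called, the genes with the smallest p in each direction are described, and none of them passed the threshold (adjusted p = 0.977 for Rab5c, limma). Rab5c, a small GTPase of early endosomes, had log2 values from 7.41 to 9.85 over the clozapine arrays, with a median of 9.06. Over the haloperidol arrays it ran from 7.15 to 8.73, with a median of 8.17. Of the 10 clozapine arrays 8 lay above every haloperidol array and clozapine array 1 lay far below the others, so the groups overlapped. The means were 8.94 ± 0.62 and 8.07 ± 0.44 (SD, n = 10 each) and differed by 0.87 (SE 0.23, 95% interval 0.39 to 1.35, unadjusted p = 0.00112, limma). Without haloperidol arrays 2 and 7 the difference was 0.75, and with the RNA quality covariate added it was 0.49. The control mean was 8.43, between the drugs.

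Spr encodes sepiapterin reductase, the last enzyme in the synthesis of tetrahydrobiopterin, the cofactor of tyrosine and tryptophan hydroxylase. Its log2 values ran from 6.01 through a median of 6.87 to 7.81 after clozapine. After haloperidol they ran from 4.92 through 5.90 to 7.23. The clozapine arrays thus lay mostly above, and 3 of 10 exceeded all haloperidol arrays. The means of 6.88 ± 0.58 and 6.02 ± 0.71 differed by 0.87 (SE 0.28, 95% interval 0.29 to 1.44, unadjusted p = 0.00486, limma), with controls at 6.62. The difference was 0.99 without haloperidol arrays 2 and 7 and 0.35 with the covariate added, which moves the value by more than 1.5 times.

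Thumpd1, an RNA-binding protein that takes part in tRNA modification, had medians of 8.00 (7.53 to 8.37) after clozapine and 7.59 (7.07 to 7.84) after haloperidol, and 7 clozapine arrays lay above all haloperidol arrays. Hnrnpdl, an RNA-binding protein of the hnRNP family, had medians of 11.90 (11.30 to 12.23) and 11.18 (10.81 to 12.16). The other genes on this side were Exoc1 of the exocyst complex, the lysosomal beta-mannosidase gene Manba, the phospholipid flippase Atp11b, the cyclin gene Ccnt1, the L-type calcium channel gene Cacna1d, Nop10 of the box H/ACA ribonucleoproteins, the lipid kinase gene Pip5k1a and the carbonic anhydrase gene Car12. Over these 12 genes the differences ran from 0.34 for Cacna1d to 0.87 for Rab5c and Spr. Other probe sets of Hnrnpdl gave 0.35 to 0.40, those of Pip5k1a 0.14 and 0.34 and that of Nop10 0.35. A second probe set of Cacna1d gave a difference of -0.07. In the covariate fit Manba was at 0.26 instead of 0.79, Nop10 at 0.21 instead of 0.49 and Car12 at 0.09 instead of 0.46. Thumpd1 was at 0.16 there, Exoc1 at 0.29 and Atp11b at 0.40, each smaller by over 1.5 times.

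On the lower side, Luzp1, a leucine zipper protein that binds actin, ran from 3.57 through a median of 5.31 to 6.08 after clozapine. After haloperidol it ran from 5.49 through 6.03 to 6.44. Of the clozapine arrays 6 lay below all haloperidol arrays, clozapine array 7 being the lowest, and the other 4 overlapped them. The means of 5.22 ± 0.71 and 6.02 ± 0.25 differed by -0.81 (SE 0.23, 95% interval -1.28 to -0.33, unadjusted p = 0.00205, limma), and controls averaged 6.15. A second Luzp1 probe set showed a difference of 0.0003. Without haloperidol arrays 2 and 7 and with the covariate the difference was -0.29, a change of more than 1.5 times.

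Dennd4b, of a family that activates Rab GTPases, had medians of 7.32 (7.15 to 7.53) after clozapine and 7.59 (7.48 to 8.15) after haloperidol, and 8 of 10 clozapine arrays lay below all haloperidol arrays. The difference was -0.33 (SE 0.10) and -0.41 without haloperidol arrays 2 and 7 and with the covariate. Xbp1, the transcription factor of the unfolded protein response, had medians of 9.99 (9.73 to 10.50) and 10.43 (9.95 to 10.79). Its difference was -0.36 (SE 0.12), and its 3 other probe sets gave -0.07, -0.29 and -0.60. The remaining genes were the efflux transporter gene Abcc5, the nuclear pore gene Nup93, the mitochondrial thiolase gene Acat1, the lysosomal membrane gene Scarb2, Mylip, whose product marks lipoprotein receptors for degradation, Plekha5, the splicing regulator Rbfox2, the neuregulin receptor gene Erbb3 and the mitochondrial kinase gene Dguok. Their differences ran from -0.75 for Plekha5 to -0.37 for Scarb2. Other probe sets of Rbfox2 also gave lower means, by -0.64 and -1.35. Those of Plekha5 (0.32) and Scarb2 (0.22) gave higher ones, those of Acat1 gave 0.13 and -0.13, and those of Abcc5 ran from -0.06 to 0.68. In the covariate fit Plekha5 was at -0.25, Xbp1 at -0.17, Erbb3 at -0.35 and Scarb2 at -0.57, each moved by over 1.5 times. Of the 24 genes named for their p, 12 were smaller by over 1.5 times in that fit, and 10 with the array clusters as a block. Only clusters A (3 clozapine and 5 haloperidol arrays) and B (1 and 3) hold both drugs. Differences with that block therefore rest on these arrays alone, without cluster C and the single arrays.

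**Figure D3:**
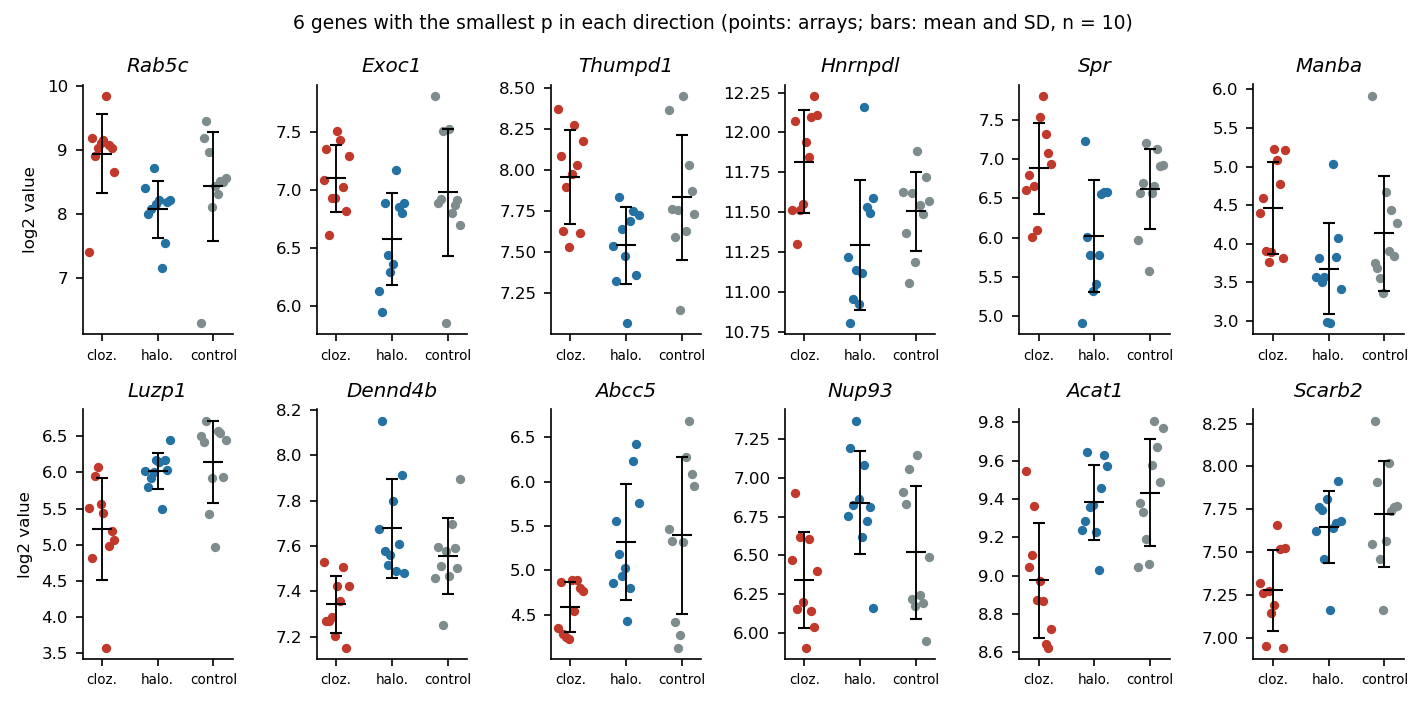
Log2 values of every array (points) for the 6 genes with the smallest p in each direction, in clozapine, haloperidol and control mice, with the mean and SD (n = 10 per group). The drug groups overlap for every gene shown, and for Rab5c 8 of 10 clozapine arrays lie above the highest haloperidol array.

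Cells respond to synaptic activity by inducing immediate early transcription factors within minutes, among them the Fos, Jun, Egr and Nr4a families, and these in turn drive effector genes. Of 25 genes of this class 16 were measured, and 13 had a lower mean after clozapine than after haloperidol. The median difference was -0.21, against 0.06 over the 7576 tested genes, and none was called or reached an unadjusted p under 0.05. Of all tested genes 2760 of 7576 had a lower mean. The median was -0.23 without haloperidol arrays 2 and 7, and -0.03 when the RNA quality covariate was added, with 9 of 16 lower. With the array clusters as a block it was -0.08. Against untreated mice both drugs gave a higher median, by 0.14 for clozapine and 0.23 for haloperidol. These control values include array 1, whose 3' minus 5' difference was 4.09. Among untreated arrays it had the lowest Jun (7.39), Junb (4.17) and Nr4a1 (7.49) values, but not the lowest of Fos or Egr1. The medians without it were not computed.

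Among the functional lists this one had the largest absolute median. The promoters of its 4 genes with the smallest p, Klf2, Jun, Nr4a1 and Fos, are shown. They are the 250 bases before the start in the RefSeq promoter table for GRCm38.p6, at chr8:72318812-72319061 (+), chr4:95052223-95052472 (-), chr15:101266596-101266845 (+) and chr12:85473640-85473889 (+). Capitals mark TGACG, the core of the cAMP response element (CRE), on either strand.
Klf2: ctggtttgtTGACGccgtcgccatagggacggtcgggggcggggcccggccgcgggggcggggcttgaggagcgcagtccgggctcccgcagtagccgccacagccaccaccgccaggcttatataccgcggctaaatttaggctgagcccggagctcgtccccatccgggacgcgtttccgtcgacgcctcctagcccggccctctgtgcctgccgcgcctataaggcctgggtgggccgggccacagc
Jun: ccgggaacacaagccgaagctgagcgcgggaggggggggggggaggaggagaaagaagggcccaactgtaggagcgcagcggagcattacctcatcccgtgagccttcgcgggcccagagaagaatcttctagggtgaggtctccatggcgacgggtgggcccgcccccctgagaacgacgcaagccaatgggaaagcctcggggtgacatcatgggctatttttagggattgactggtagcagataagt
Nr4a1: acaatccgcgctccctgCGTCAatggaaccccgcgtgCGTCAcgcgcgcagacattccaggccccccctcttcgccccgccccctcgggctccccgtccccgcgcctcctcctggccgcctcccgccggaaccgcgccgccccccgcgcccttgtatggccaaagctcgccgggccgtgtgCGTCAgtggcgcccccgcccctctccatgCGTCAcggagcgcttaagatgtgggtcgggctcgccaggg
Fos: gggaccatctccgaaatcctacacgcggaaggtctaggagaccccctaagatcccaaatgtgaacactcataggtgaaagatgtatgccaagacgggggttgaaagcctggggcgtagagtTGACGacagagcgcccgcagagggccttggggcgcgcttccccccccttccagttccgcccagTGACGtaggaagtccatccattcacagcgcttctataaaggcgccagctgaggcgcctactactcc
This core occurred 4 times in Nr4a1, 2 times in Fos and 1 time in Klf2, and 0 times in the Jun window. It was in 17.8% of the 32851 windows of this length in the table, and in 12 of 20 windows of the class. The class was counted with the first window of each gene, and the table with every window, so the shares differ in unit. The full CRE TGACGTCA, which contains the core, was in none of the 4 windows, in 0 of 20 of the class and in 1.55% of all windows. The CArG box (in 1.47% of windows), the EGR motif GCGTGGGCG (0.536%), the AP-1 motif TGACTCA (4.46%), the E-box CACGTG (6.02%) and the D-box TTATGTAA (0.819%) were in none of the 4 either. Over the class, the CArG box was in 1 of 20 windows, the E-box in 3, and the EGR, AP-1 and D-box motifs in 0. All were searched on both strands, and these are letter matches only.

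Fos ran from 8.80 through a median of 9.89 to 10.16 after clozapine and from 8.95 through 10.14 to 10.66 after haloperidol. Jun ran from 7.79 through 8.47 to 8.86, against 7.36 through 8.94 to 9.31. Nr4a1, an orphan nuclear receptor, ran from 8.97 through 9.40 to 9.87, against 8.34 through 9.97 to 10.54. For all 3 genes the groups overlapped, and the haloperidol median was the higher one. The differences were -0.29 (95% interval -0.71 to 0.12) for Fos, -0.32 (-0.74 to 0.10) for Jun and -0.35 (-0.85 to 0.14) for Nr4a1. A second Jun probe set gave -0.02, and Fos was at -0.04 in the covariate fit. Klf2, a Krüppel-like factor, had medians of 5.97 and 6.19 and a difference of -0.47 (-0.98 to 0.04). Junb had the largest difference, -0.83, with a wide interval from -2.27 to 0.62, and was at 0.02 in the covariate fit. Egr1, a zinc finger factor, differed by -0.06 (-0.26 to 0.14), an interval within 1.5-fold either way. Jund differed by -0.06, Nr4a2 by -0.11 and Egr2 by -0.12, with a second Egr2 probe set at 0.34. Fosb, Fosl1, Fosl2, Egr3, Egr4 and Nr4a3 lay below the filter.

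**Figure D4:**
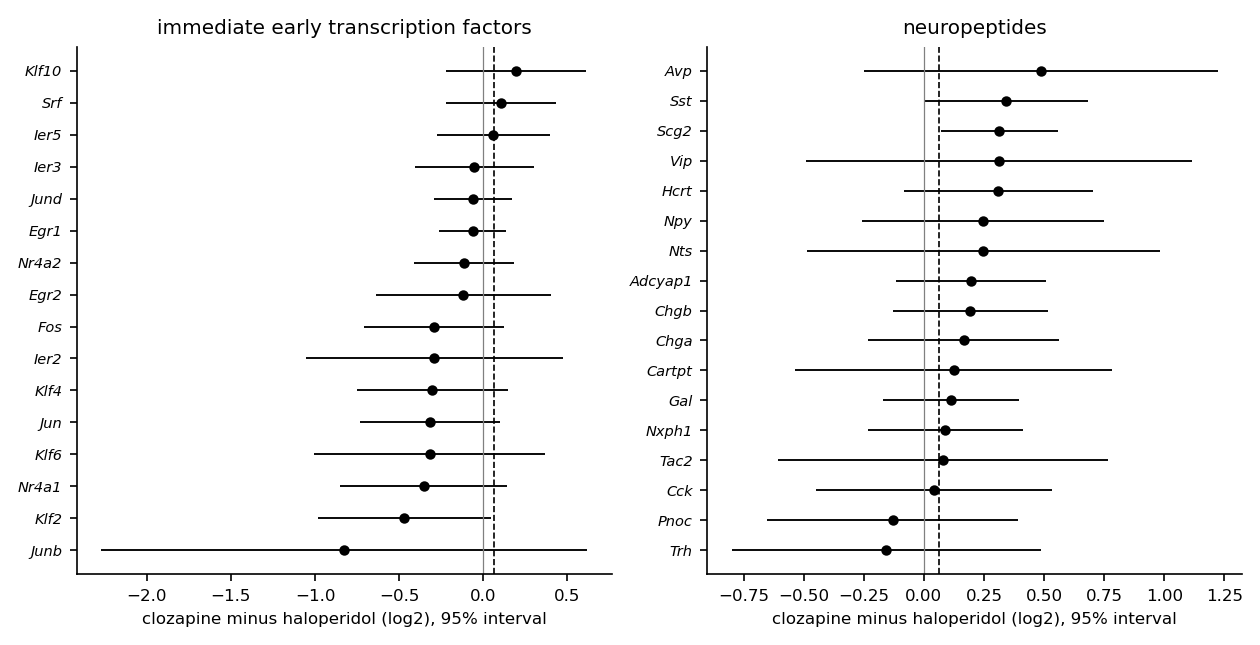
Difference between clozapine and haloperidol (log2, horizontal axis) with its 95% interval for each measured immediate early transcription factor (left) and neuropeptide gene (right), n = 10 arrays per drug. Solid lines mark 0 and dashed lines the median over all tested genes, 0.06; of the factors 13 of 16 lie left of 0, of the neuropeptide genes 15 of 17 lie right of it, and only the intervals of Scg2 and Sst leave out 0.

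Activity-induced effectors and feedback genes, the targets and brakes of this response, were lower after clozapine for 19 of 24 measured genes. Over all tested genes 2760 of 7576 were lower. The list had a median of -0.14 and none at an unadjusted p under 0.05. The smallest p values belonged to the stress sensor Gadd45b (-0.43), the antiproliferative gene Btg1 (-0.46) and Inhba (-0.46), an activin subunit. The median was -0.05 without haloperidol arrays 2 and 7 and with the covariate.

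Neuropeptide genes lay on the other side. Of 23 such genes 17 were measured and 15 had a higher mean after clozapine, with a median of 0.19 and 2 at an unadjusted p under 0.05. Over all tested genes 63.6% had a higher mean and 2.53% reached that p. Scg2, the precursor of secretoneurin, ran from 11.05 through a median of 11.21 to 11.64 after clozapine and from 10.38 through 10.996 to 11.30 after haloperidol, and 4 clozapine arrays lay above all haloperidol arrays. It differed by 0.31 (SE 0.12, 95% interval 0.07 to 0.56, unadjusted p = 0.0142, limma). Sst, the somatostatin gene of a class of interneurons, had medians of 9.66 and 9.47 in overlapping ranges and differed by 0.34 (unadjusted p = 0.048, limma). Hcrt, which encodes the arousal peptide orexin, differed by 0.31. Scg2 was at 0.13 in the covariate fit. The list median was 0.26 without haloperidol arrays 2 and 7, and 0.01 with 8 of 17 lower in the covariate fit. With the array clusters as a block it was 0.08, with 7 of 17 lower. Among hypothalamic markers, of which 4 of 10 were measured, Hcrt, the vasopressin gene Avp (0.49) and Trh (-0.16) had the smallest p and the median was 0.22.

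Dopamine synthesis, transport and receptor genes were measured for 8 of 18. The median was 0.15, and 6 had a higher mean after clozapine, 1 of them (Spr) at an unadjusted p under 0.05, against 63.6% higher and 2.53% at that p over all tested genes. Without haloperidol arrays 2 and 7 the median was 0.27, and in the covariate fit it was -0.03, with 5 of 8 lower. Pts, an earlier enzyme of tetrahydrobiopterin synthesis, differed by 0.31, and Ddc, which makes dopamine from its precursor, by 0.46, but they were at -0.051 and -0.015 in the covariate fit. Drd2, the receptor that haloperidol blocks, ran from 5.69 through a median of 6.44 to 7.13 after clozapine and from 5.86 through 6.48 to 7.39 after haloperidol. The ranges overlapped widely, and the difference was -0.07 (SE 0.22, 95% interval -0.52 to 0.39), with controls at 6.14. It was 0.07 without haloperidol arrays 2 and 7, and -0.46 with the covariate added. Drd3 lay below the filter.

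Receptors for serotonin, histamine, acetylcholine and adrenaline, through which clozapine also acts, were poorly covered: 4 of 29 genes were measured. Htr2c, a serotonin receptor, had medians of 5.995 (3.30 to 7.45) and 4.60 (3.18 to 7.75), a difference of 0.52 with an interval from -0.84 to 1.87. The histamine receptor genes Hrh1 (-0.09) and Hrh3 (-0.06) were close to 0. Htr6, Htr7, Chrm1 and Chrm4 lay below the filter. The list median was -0.05, and 0.09 without haloperidol arrays 2 and 7.

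Striatal projection neuron genes had a median of 0.02 over 17 measured of 26, 10 higher and 7 lower, and of -0.07 with 13 lower in the covariate fit. Penk, the enkephalin precursor of striatal neurons that carry D2 receptors, ran from 10.54 through a median of 10.84 to 11.15 after clozapine and from 10.80 through 11.10 to 11.34 after haloperidol. Of the clozapine arrays 5 lay below all haloperidol arrays. It differed by -0.23 (SE 0.11, 95% interval -0.46 to 0.00, unadjusted p = 0.0517, limma), with a control mean of 10.74. It was at -0.39 in the covariate fit, -0.35 with the array clusters as a block and 0.0094 over replicate numbers 7 to 10. Rarb (-0.34), a retinoic acid receptor, and Rgs9 (0.17), a brake on dopamine receptor signalling, followed. Genes for regulators of G-protein signalling, which shorten receptor signals, were higher after clozapine for 13 of 15 (86.7%, against 63.6% over all tested genes). Their median was 0.17 and none reached an unadjusted p under 0.05. Rgs11 (0.62), Rgs9 and Rgs5 (0.35) led them. Other probe sets of Rgs5 gave -0.46, -0.63 and 0.24, and the list median was -0.09 in the covariate fit, with 11 of 15 lower.

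In the circadian clock, activators drive Period and Cryptochrome repressors and the nuclear receptors of the Rev-erb family. Of 23 clock genes 19 were measured, 11 higher and 8 lower, with a median of 0.08. Nr1d1, which encodes Rev-erb alpha, ran from 5.28 through a median of 6.24 to 7.30 after clozapine and from 4.01 through 5.48 to 6.62 after haloperidol. The groups overlapped, and 4 clozapine arrays exceeded all haloperidol arrays. It differed by 0.87 (SE 0.33, 95% interval 0.18 to 1.56, unadjusted p = 0.0164, limma). It was the 1 clock gene of 19 at an unadjusted p under 0.05 (5.26%, against 2.53% of all tested genes). Without haloperidol arrays 2 and 7 it differed by 0.78, and by 0.55 with the covariate added. Rorb (-0.93), a receptor that opposes Rev-erb, and Hlf (-0.44), an output factor, had wide intervals. Per1 (0.26), Per2 (-0.21) and Per3 (0.08) did not share a sign.

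Genes of inhibitory and excitatory transmission showed medians near that of all genes. For GABA synthesis, transport and receptors it was 0.03 over 12 genes, led by Gabrg1 (0.49), Gabrb2 (-0.61) and the GABA-producing enzyme Gad2 (-0.56). For glutamate receptors and transporters it was 0.07 over 13 genes. Slc17a6, the vesicular glutamate transporter of subcortical neurons, differed by 0.56 (unadjusted p = 0.0273, limma), and Slc1a1 and Gria1 by 0.16 each, while other probe sets of these 3 genes gave lower means. Slc17a6 was at 0.12 in the covariate fit. Synaptic vesicle genes had a median of 0.03 over 23, with Pclo (0.44), a scaffold of the active zone, Syt4 (-0.43) and Vamp1 (0.25) first by p. Another probe set of each gave the opposite sign, at -0.30 for Pclo, 0.06 for Syt4 and -0.46 for Vamp1. Voltage-gated channels had a median of -0.08 over 28, 17 of them lower, against 2760 of 7576 tested genes. The potassium channel genes Kcnh1 (-1.43), Kcnc1 (-0.93) and Kcna1 (-0.88) had the smallest p, with SDs of 2.39, 1.59 and 1.74 over clozapine arrays against a median of 0.37 over all tested probe sets. In the covariate fit they were at 0.048, 0.092 and 0.41 and the list median at 0.04, and with the array clusters as a block at -0.12, -0.19 and -0.13. Calmodulin and calcium signalling genes had a median of 0.09 over 24, led by the kinase gene Camkk2 (0.53) and the calmodulin-binding genes Pcp4 (0.33) and Nrgn (0.43). Cortical projection neuron genes had a median of 0.02 over 14, led by Lmo4 (0.39), Cux2 (-0.31) and Neurod1 (0.48).

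Signalling genes downstream of these receptors were also near 0. Akt, GSK3 and Wnt genes had a median of 0.02 over 21, with Pik3ca (0.74), Foxo3 (-0.28) and Pik3r1 (-0.55) first by p. Neurotrophins, growth factors and their receptors had a median of -0.03 over 13, with Igf1 (0.37), Fgfr3 (-0.21) and Egfr (-0.21) first. Glucocorticoid-responsive genes had a median of -0.03 over 15, among them the metallothionein Mt2 (0.23), Dusp1 (-0.32) and Cdkn1a (-0.22).

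Clozapine is known for weight gain and for raising lipid synthesis in cultured cells, so lipid genes were examined. Sterol synthesis genes had a median of 0.03 over 19, 11 of them higher, none at an unadjusted p under 0.05. The demethylase gene Cyp51 (0.34), the reductase gene Dhcr7 (0.38) and Msmo1 (-0.14) had the smallest p. Fatty acid synthesis genes were higher after clozapine for 12 of 14 (85.7%, against 63.6% over all tested genes). They had a median of 0.12, led by the elongase gene Elovl6 (0.28), Acly (0.25) and Elovl5 (0.19). That median was 0.23 without haloperidol arrays 2 and 7 and 0.03 with the covariate added. Cholesterol export and apolipoprotein genes had a median of 0.04 over 13, with Mylip (-0.46), Cyp46a1 (0.19), which clears cholesterol from neurons, and Lrp1 (0.21).

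Among energy genes, the respiratory chain held 55 measured of 58, 37 higher and 18 lower, with a median of 0.07 and 4 higher at an unadjusted p under 0.05. These shares, 67.3% higher and 7.27% at that p, stand against 63.6% and 2.53% over all tested genes, and in the covariate fit the median was 0.02 with 21 lower. The 4 included Ndufs1 (0.35) of complex I, Sdha (0.36) of complex II and Uqcrb (0.32) of complex III. Second probe sets of Sdha and Uqcrb gave smaller differences, 0.12 and 0.07. Glycolytic enzymes had a median of 0.03 over 16, led by Ldhb (0.26), Aldoa (-0.18) and the glucose transporter Slc2a3 (-0.11). Antioxidant genes had a median of 0.08 over 22, with the mitochondrial peroxiredoxin Prdx3 (0.30), Mt2 and Prdx2 (-0.24).

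Protein and RNA handling genes gave medians from -0.04 to 0.12. For hnRNP and SR splicing factors the median was 0.12 over 42 genes, and -0.04 without haloperidol arrays 2 and 7 and with the covariate. Of these genes 28 were higher (66.7%, against 63.6% over all tested genes). Hnrnpdl, the kinase gene Clk4 (0.46) and Srsf10 (-0.63) reached an unadjusted p under 0.05 (7.14%, against 2.53%). A second Clk4 probe set gave 0.48, whereas other Srsf10 probe sets gave 0.12, -0.13 and -0.16. Cytosolic ribosomal proteins had a median of -0.02 over 37, led by Rps4x (0.20), Rps25 (0.57) and Rpl19 (-0.26). Translation factors had -0.002 over 27, led by Eif2s2 (0.23), Eif4h (0.12) and Eef1b2 (-0.17). Proteasome subunits had -0.005 over 33. There Psmd1 ran from 9.84 through a median of 10.19 to 10.62 after clozapine and from 9.47 through 9.92 to 10.23 after haloperidol, a difference of 0.37, ahead of Psmd6 (0.21) and Psma7 (-0.43). The unfolded protein response had -0.04 over 24, with Xbp1, Ero1a (0.32) and Manf (-0.27). Heat shock chaperones had 0.03 over 28, with Hspa4 (0.26), whose other probe sets gave 0.24 and 0.77, Hspb1 (-0.44) and Hspd1 (0.23). Immune genes, MHC class I and interferon, had 0.11 over 12, with B2m (0.21), Ifitm2 (-0.27) and Ifitm3 (0.19). Cytoskeletal genes had -0.03 over 29, with Nefh (0.35), Tubb2b (-0.35) and Actb (-0.42).

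**Figure D5:**
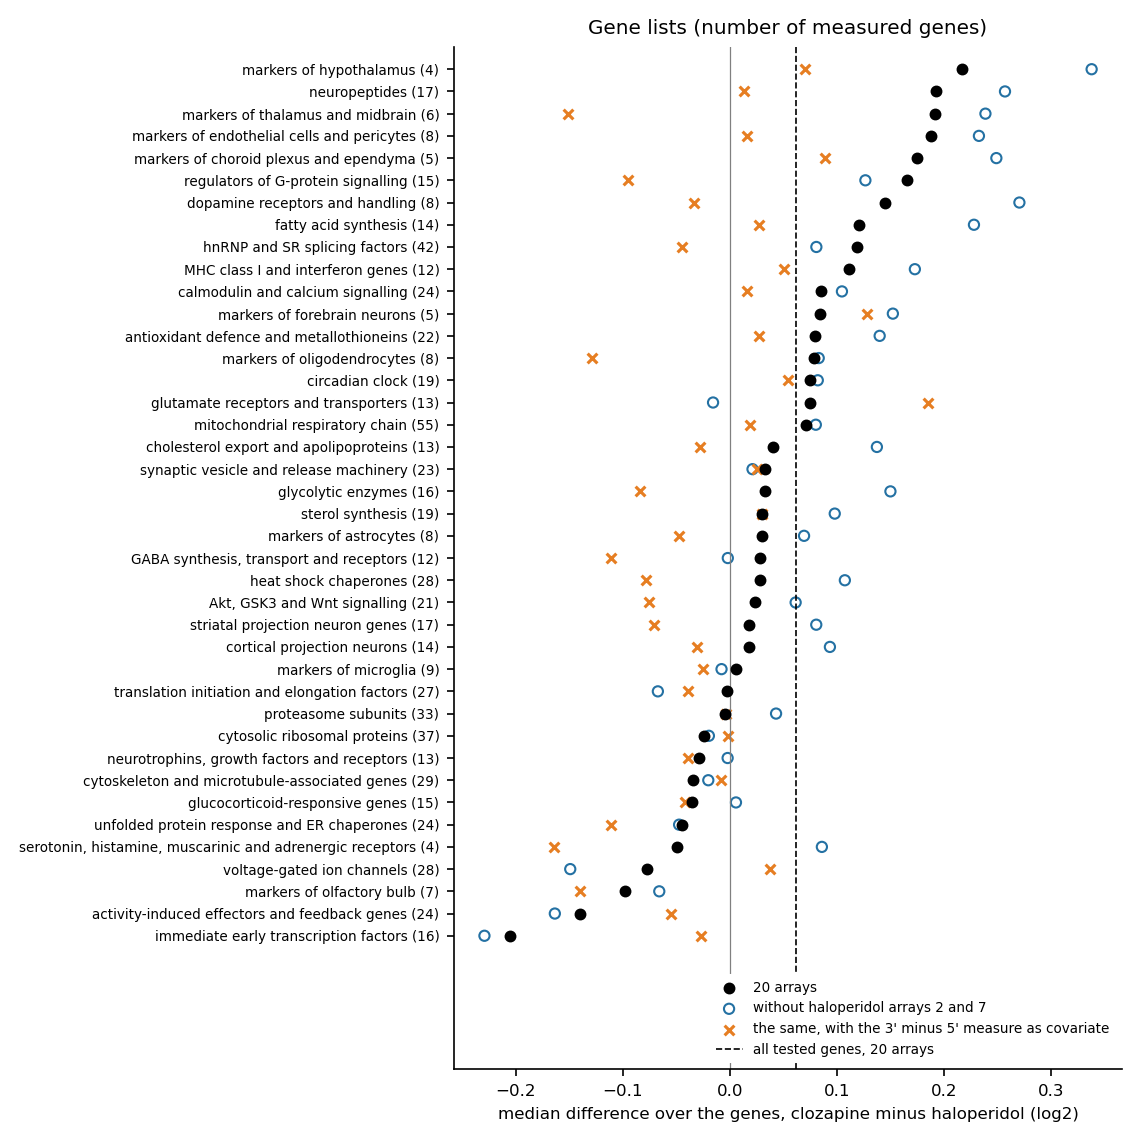
Median difference between clozapine and haloperidol (log2, horizontal axis) over the measured genes of each list (number in brackets), for all 20 arrays, without haloperidol arrays 2 and 7, and without them with the RNA quality covariate. The dashed line is the median of all tested genes, 0.06. The immediate early list lies lowest at -0.21 and moves to -0.03 without haloperidol arrays 2 and 7 and with the covariate.

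In the covariate fit 15 of the 40 list medians had the opposite sign, with the array clusters as a block 11, and without haloperidol arrays 2 and 7 alone 6. Markers of cell types and regions were set beside these results. The median was 0.08 over 5 forebrain neuron markers (Neurod6 0.32, Tbr1 0.14, Bcl11b -0.32). It was 0.08 over 8 oligodendrocyte markers (Mobp 0.16, Mog -0.16, Ugt8a 0.22), 0.03 over 8 astrocyte markers (Aqp4 0.21, Gfap 0.20, Slc1a3 -0.12) and 0.006 over 9 microglia markers (Cx3cr1 -0.62, C1qb -0.32, Csf1r 0.14). Endothelial and pericyte markers, at 0.19 over 8 (Tek 0.30, Rgs5, Egfl7 0.18), thalamic and midbrain markers, at 0.19 over 6 (Rora 0.62, Ntng1 0.21, Prkcd -0.18), and choroid plexus markers, at 0.17 over 5 (Igf2 0.25, Ttr 0.21, Folr1 -0.19), lay above the median of all genes. In the covariate fit they were at 0.02, -0.15 and 0.09, and the oligodendrocyte markers at -0.13 with 7 of 8 lower. Olfactory bulb markers lay below it, at -0.10 over 7, or 0.13 with the array clusters as a block (all 20 arrays: Cdhr1 -0.40, Pbx3 0.32, Lhx2 -0.10). None of these genes reached an unadjusted p under 0.05, and their part in the other lists was not tested. The mean level of the thalamic and midbrain markers ran from 7.45 to 8.58 over clozapine arrays and from 7.26 to 8.27 over haloperidol arrays, so the groups overlapped.

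The differences of more than 2-fold were almost all lower after clozapine: 64 probe sets (0.494% of those tested) against 2 higher (0.0155%). They were described after their values were seen. Of the 64, 8 reached an unadjusted p under 0.05 in limma, against 2.49% of all tested probe sets. The 64 were chosen for large differences, so this count is no separate support. Their median SD over clozapine arrays was 2.19, against 0.37 over all tested probe sets. All 5 probe sets of Malat1, an abundant nuclear RNA that does not code for protein, were among them, with differences from -1.27 to -1.53. Also among them were probe sets of Ddx6 (-1.98), an RNA helicase of processing bodies, Ago2 (-1.72), the slicer of RNA interference, and Kif5c (-1.53), a kinesin of neurons. Ddx6 ran from 2.09 through a median of 6.28 to 9.98 over the clozapine arrays and from 4.94 through 8.24 to 9.95 over the haloperidol arrays, so both groups spanned a wide range. The median level of the 64 probe sets lay from 3.71 to 6.47 in the 5 clozapine arrays of cluster C and from 8.59 to 8.99 in the 3 of cluster A. Haloperidol arrays of cluster A lay from 8.02 to 8.98, and the 2 untreated arrays of cluster C from 5.25 to 6.38. Low levels also occurred outside cluster C, with haloperidol arrays 2 and 7 at 4.86 and 4.73. Clozapine array 7 was at 3.07 and clozapine array 1 at 6.14, and haloperidol arrays of cluster B lay from 6.82 to 6.95. The clusters were cut from these same expression values, so these levels are a description, and the part of the clusters in the differences was not tested. For some genes the probe sets differed: an Mbp probe set gave -1.40 and an Aqp4 probe set -1.01, against -0.02 and 0.21 for the brightest probe sets of these genes.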

How the data were processed

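The values are log2 intensities that the authors deposited for each probe set, computed by GCRMA according to the submitters' processing notes. Its version is not given in the sources used here, nor are scan dates or which arrays were normalized together. Samples were grouped by title. AFFX control probe sets (64 of 22690) and probe sets with a mean under 4 over all 30 arrays were left out. Of the 22626 others, 20380 have 1 gene symbol in the platform annotation, 691 several and 1555 none; those without exactly 1 were not named. Clozapine and haloperidol were compared with limma 3.58.1 in R 4.3.3 (lmFit, eBayes, two-sided, 18 residual degrees of freedom), adjusting p over all 12944 tested probe sets by Benjamini-Hochberg, with calls at an adjusted p under 0.05; the code was tested on simulated data. Array measures were compared by permutation (1e+05 draws). The members and lists were chosen with earlier results of these data known. A list uses the brightest probe set of each gene, and other probe sets are given in the text for some genes only. Lists with fewer than 4 measured genes (cerebellum, blood, pituitary) were not described further. Named genes were the 12 with the smallest p in each direction, the 3 with the smallest p in each list, 12 receptor genes where measured, and the Egr, Fos, Jun, Nr4a and Per families. Promoters were shown for the functional list with the largest absolute median; marker lists were left out of that choice after their values were seen, since the 4 hypothalamic markers had a median of 0.22. Same-numbered arrays were not treated as pairs: correlations of their deviations ran from -0.19 to 0.70, with 3 of 10 not over 0.1, and 1 of 10 clozapine arrays correlated best with its own number. Each mouse is a replicate, and their number limits the precision. Alternatives covered the filter, scaling, blocks, weights, covariates and leaving out arrays; the fit without haloperidol arrays 2 and 7 with the RNA quality covariate was added after seeing the data.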

Additional observations from a re-analysis of the deposited data

Results flagged for a closer look

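In 92 groups of 10 arrays, 1 drug and 1 gene or measure each, the gap between the outermost array and its neighbour was set against the range of the group (Dixon's 95% limit). About 1 in 20 groups passes this limit by chance; 9 did here. Among clozapine arrays these were Atp11b in array 3 at 8.03 (next 8.72), Egr1 in array 10 at 11.70 (next 11.45), Luzp1 in array 7 at 3.57 (next 4.81) and Rab5c in array 1 at 7.41 (next 8.65). Among haloperidol arrays, array 7 had Jun at 7.36 (next 8.32), Pts at 7.63 (next 6.84) and a difference between 3' and 5' control probe sets of 2.45 (next 1.10). Haloperidol array 2 had Jund at 10.85 (next 10.37) and Scg2 at 10.38 (next 10.81). Thus 5 of the 9 lay in haloperidol arrays 2 and 7, which also carried the lowest array weights, 0.162 and 0.223.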

How the results depend on the processing

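In limma no probe set passed an adjusted p of 0.05 under any alternative run, so only counts at an unadjusted p under 0.05 (322, 204 higher and 118 lower) are compared. Most genes have intervals that include 0, so signs can turn easily. Fitting all 30 arrays gave 406, quantile normalization 341, centring arrays on their median 326 and the RNA quality covariate 334. Centring gave 178 of 326 higher, or 54.6%, against 63.4%. Without the filter 187 were lower, and with a mean of at least 6 there were 60 lower. With the replicate number as a block the counts were 880, 543 higher and 337 lower; same-numbered arrays were not treated as pairs. A term for numbers 1 to 6 and 7 to 10 gave 728 (527 and 201), numbers 1 to 6 alone 525 (361 higher) and numbers 7 to 10 alone 1121 (456 and 665). Cluster A held only numbers 1 to 6, and at numbers 8 to 10 the drugs shared no cluster. Array clusters as a block, where only clusters A and B inform the difference, gave 497 (316 and 181) and array quality weights 2586 (1772 and 814). Without haloperidol arrays 2 and 7 there were 1980 (1358 and 622), the 3' minus 5' difference was 0.37 and that of array medians -0.022. The covariate added to this, an alternative chosen after seeing the data, left 105 higher. Leaving out 1 array at a time gave 170 to 1345, with 112 to 984 higher and 58 to 361 lower. With haloperidol arrays 2 and 7 left out and the RNA quality covariate, the sign turned for Elovl5 (-0.077), Junb (0.020), Kcna1 (0.41), Rgs5 (-0.095), Eif2s2 (-0.031), Neurod6 (-0.025), Kcnh1 (0.048), Rgs9 (-0.14), Trh (0.23), Ugt8a (-0.17), Csf1r (-0.022) and Hcrt (-0.088). There it also turned for Pbx3 (-0.14), Vamp1 (-0.026), Kcnc1 (0.092), Psma7 (0.18), Rora (-0.14), Nefh (-0.0024), Rorb (0.27), Rgs11 (-0.16), Ddc (-0.015), Hspd1 (-0.078), Egr2 (0.20) and Hlf (0.37). There it also turned for Actb (0.16), Eef1b2 (0.095), Jund (0.055), Cx3cr1 (0.37), Bcl11b (0.22) and Pts (-0.051). With replicate numbers 1 to 6 only, the sign turned for Syt4 (0.11), Eif4h (-0.021), Gad2 (0.31), Hrh3 (0.11) and Bcl11b (0.48). With replicate numbers 7 to 10 only, the sign turned for Nr4a1 (0.087), Elovl6 (-0.27), Lhx2 (0.23), Prdx2 (0.0081), Trh (0.14), Drd2 (0.058), Ccnt1 (-0.0023), Fgfr3 (0.20), Cdkn1a (0.14), Penk (0.0094), Egr2 (0.48) and Mobp (-0.16). There it also turned for Slc2a3 (0.010), C1qb (0.29), Hrh1 (0.064), Igf2 (-0.0022), Dusp1 (0.27), Klf2 (0.080), Htr2c (-0.018), Avp (-0.20), B2m (-0.14), Tubb2b (0.093) and Egfr (0.082). With the array clusters as a block, the sign turned for Ifitm2 (0.12), Rgs5 (-0.046), Cdhr1 (0.17), Rgs9 (-0.0077), Trh (0.057), Ugt8a (-0.052), Psma7 (0.14), Slc1a3 (0.049), Hspd1 (-0.0043), Hlf (0.22), Aldoa (0.075) and Eef1b2 (0.090). There it also turned for Cx3cr1 (0.056) and Bcl11b (0.0072). With array quality weights, the sign turned for Per2 (0.027), Drd2 (0.11), Ugt8a (-0.0049), Per3 (-0.038), Egr2 (0.066), Hrh1 (0.20) and Jund (0.014). With haloperidol arrays 2 and 7 left out, the sign turned for Per2 (0.022), Drd2 (0.072), Ugt8a (-0.020), Hrh1 (0.18) and Jund (0.0076). Leaving out single arrays turned the sign of Trh (-0.30 to 0.0068), Drd2 (-0.14 to 0.035), Ugt8a (-0.047 to 0.32), Per3 (-0.0076 to 0.12), Hrh1 (-0.17 to 0.061), Hrh3 (-0.16 to 0.055), Jund (-0.10 to 0.0086), Bcl11b (-0.51 to 0.12) and Folr1 (-0.32 to 0.010), given as lowest and highest values. The cause of these changes was not tested.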
